A study of Laccaria bicolor with 20 samples.

Results

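Of the 23130 gene models of the ectomycorrhizal basidiomycete Laccaria bicolor S238N, 162 were selected on their measured values as higher in mycelium with surplus glucose (+C) and also in mycelium with surplus phosphate (+P). The rule compared mean normalised read counts (CPM, reads scaled to an equal library total) through L, the log2 ratio of the mean of a medium plus 1 to the mean of the control plus 1. A gene was taken when the control mean was at least 0.3 CPM, when L was at least 0.7 in +C and in +P, and when L lay above −0.7 with surplus ammonium (+N) and above −0.6 without ammonium salts (−N). The 2 genes JGI-331747 and JGI-293826 were left out by the rule. The contrasts of +C, +P, +N and −N with the control are therefore part of the choice and are described here without a test. The libraries with reduced glucose (−C) and without phosphate salts (−P) took no part in it, and −C against −P is the comparison that was tested.

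Ectomycorrhizal fungi take sugars, mainly hexoses, from the roots of their host tree and hand on nitrogen and phosphorus that their hyphae collect in soil. Glucose enters glycolysis and the pentose phosphate pathway, phosphate can be stored in the vacuole as polyphosphate, and fungi are known to adjust transporters, redox enzymes and secreted proteins to the supply of these nutrients. Small secreted proteins, some of which act as effectors in the root, are a large class of L. bicolor proteins. The genes are named by their JGI protein numbers, and functions are those of the annotation columns given with the study. A gene called without an annotation had none in the columns at hand.

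Colonies of this single isolate were grown on cellophane over modified Melin Norkrans (MMN) agar for 2 weeks at 25 °C and were then kept for 1 week on 1 of 7 media. In +C glucose was raised to 2%, and in +P 25 mM KH2PO4 was added. In −C glucose was lowered to 0.02%. The −P medium lacked both phosphate salts, with a chloride salt in their place to restore ammonium. The +N medium received an ammonium chloride salt at 25 mM, and −N lacked ammonium salts, with KH2PO4 added to restore phosphate. In the control, glucose stood at 0.5%, KH2PO4 at 3.67 mM and diammonium phosphate at 1.89 mM. Malt extract and casein hydrolysate, which themselves supply carbon, nitrogen and phosphorus, are not listed as changed in any medium. Each medium had 3 libraries, except +P with 2.

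Sequencing depth ran between 9.47 and 24.5 M reads in +C, 11.7 and 16.6 M in +P, 17.1 and 27.0 M in −C, 11.2 and 18.5 M in −P, 11.5 and 33.1 M in +N, 12.8 and 18.9 M in −N, and 14.9 and 17.2 M in the control. All 162 genes passed the filter on low counts, and 143 had at least 10 reads in each of the 20 libraries. In library 1 of +C the median log2 ratio of the genes to the control mean was 0.88, against 1.05 and 1.03 in the other +C libraries. Over all genes with a control mean of at least 0.3 CPM it was −0.03, against 0.10 and 0.09. Part of the gap was thus shared by all genes. Without it the rule returned 167 genes, of which 149 were among the 162. The choice leaned most on the control libraries. Without control replicate 1, 232 genes passed and the 200 allowed by the rule shared 145 with the 162. Without control replicate 3, 139 genes passed and 126 were shared.

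The 162 genes together took 1.44% to 1.58% of the reads in +C and 1.51% to 1.54% in +P, against 0.683% to 0.824% in the control. Their summed level was 14400, 15829 and 15623 CPM in +C, 15057 and 15386 CPM in +P, 11630, 11693 and 11467 CPM in −C, 6969, 8427 and 8648 CPM in −P, 11134, 10734 and 11101 CPM in +N, 13024, 13113 and 12468 CPM in −N, and 8244, 7324 and 6827 CPM in the control. The −P libraries overlapped those of the control, while every library of −C, +N and −N lay above them. In these bulk samples, a lower level per hypha and fewer hyphae with the transcript cannot be told apart. Of the 162 genes, 102 also reached L of 0.7 in −N, 59 in −C, 45 in +N and 6 in −P. Over all genes tested the shares were 5.90% in −N, 5.51% in −C, 4.57% in +N and 0.374% in −P. The shared control libraries and the limits of the rule on +N and −N raise the counts of the 162 genes, which are therefore a description.

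**Figure D1:**
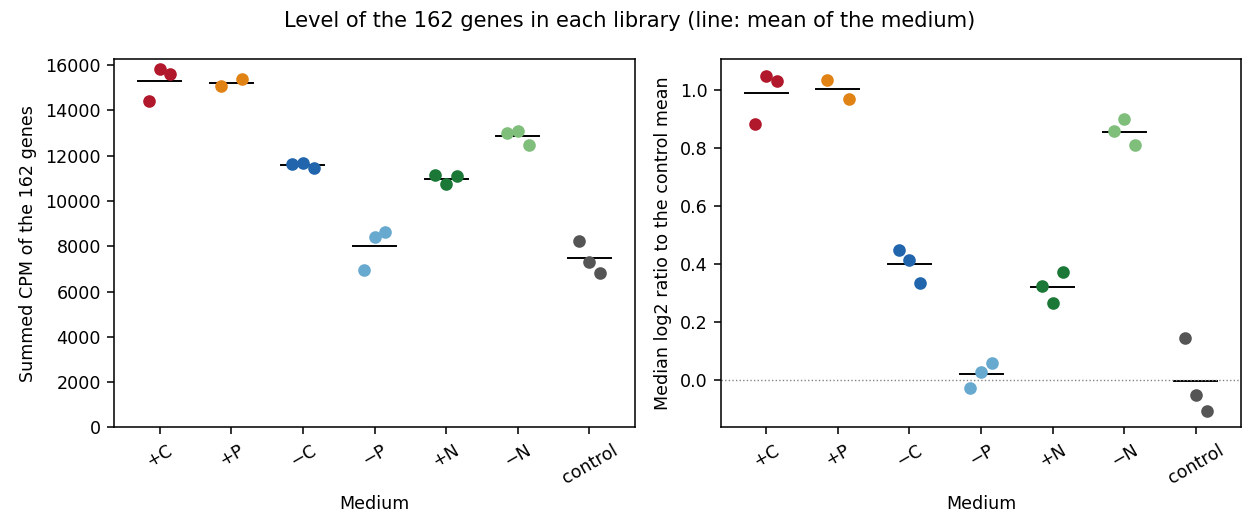
Summed CPM of the 162 genes (left) and the median over the genes of the log2 ratio to the control mean (right), for each library by medium; points are libraries and lines are means. The +C and +P libraries were selected to be high, −N, −C and +N lie between 10734 and 13113 summed CPM, and −P overlaps the control.

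The median gene had 34.0 CPM in +C and 33.8 CPM in +P, against 14.04 CPM in the control. Values of all libraries of +C lay above all control libraries for 156 genes, and the same held in +P for 160. This background share was 16.6% of the 14725 genes tested in +C and 24.3% in +P, and nothing is read from the contrast because the rule used it. On the scale of the mean plus 1, both surplus media were close to each other. In 5 genes +C exceeded +P by 1.5-fold or more, and in 2 genes +P exceeded +C by that much. The rule set the same limit on both media, and the share over all genes was not computed. The closeness is therefore a description. The median L was 0.98 in +C, 0.99 in +P, 0.40 in −C, 0.03 in −P, 0.33 in +N and 0.85 in −N.

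Library 1 of +C gave a check on replication, since it could be kept out of the choice. Of the 167 genes chosen without it, 155 (92.8%) were higher in this library than in all control libraries, against 28.9% of the 14533 genes over the same control minimum. Their median L was 0.79 in library 1 alone and 1.03 over the other +C libraries, and 104 of the 167 reached 0.7. Over the 14533 genes these medians were −0.03 and 0.10, so the drop in library 1 was in part shared by all genes. Of the 14533 genes, 245 reached 0.7 in library 1. The control libraries served in the choice as well, which favours genes that were low in them.

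Along the glucose series, the mean was lower at 0.5% glucose (control) than at 0.02% and at 2% for 121 of the 162 genes, and for 41 it increased at each step. The rule had set the step to 2% and favoured a low control, so that this split is a description. Among all genes tested with a mean in +C above the control, 64.2% also had a mean in −C above it. The highest of the 7 means fell in +C or +P for 88 genes, in −N for 37, in −C for 21 and in +N for 16. As the rule required high means in +C and +P, and no share over all genes was computed, these counts too are a description.

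Of the 8 genes with the highest sum of both L values, 4 carried a functional annotation and 4 were of unknown function or unannotated. JGI-654096, annotated as a 60S ribosomal protein, had 4.00, 14.2 and 13.1 CPM in +C and 11.3 and 23.8 CPM in +P, against 1.92, 1.21 and 0.720 CPM in the control. It was higher still in −N, with 13.7, 31.0 and 22.9 CPM. In −C it measured 0.937, 0.963 and 0.559 CPM, against 1.36, 4.55 and 1.65 CPM in −P. Its levels varied several-fold among libraries of 1 medium, and the −C libraries were all below those of −P (log2 fold change −1.59 ± 0.62, SE, adjusted p = 0.0508). This value passed the threshold in some settings, among them without −P replicate 1 (−1.92) and without −P replicate 3 (−1.80).

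JGI-309389, of unknown function, had 64.4, 81.3 and 71.2 CPM in +C and 68.3 and 71.6 CPM in +P, against 15.7, 11.6 and 10.2 CPM in the control. In −C it reached 39.2, 40.2 and 40.4 CPM, against 9.76, 12.41 and 13.96 CPM in −P. The groups did not overlap in either comparison, and the fitted log2 fold change of −C over −P was 1.67 ± 0.13 (SE, adjusted p = 1.28e-09). JGI-705959, also unknown, had a like profile with 16.3, 22.2 and 23.5 CPM in +C, 21.4 and 18.6 CPM in +P, and 5.81, 4.04 and 3.53 CPM in the control. Its −C libraries held 14.8, 14.7 and 11.4 CPM, against 5.42, 3.57 and 3.15 CPM in −P (log2 fold change 1.64 ± 0.19, adjusted p = 6.39e-07).

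JGI-607935, a small secreted protein with an invasin/intimin cell-adhesion domain, had 17.4, 23.2 and 21.6 CPM in +C and 18.6 and 24.3 CPM in +P, against 5.00, 4.24 and 3.40 CPM in the control. It was higher in −C, at 6.21, 5.71 and 5.04 CPM, than in −P, at 3.58, 2.59 and 2.15 CPM (log2 fold change 0.91 ± 0.19, adjusted p = 0.000619). JGI-629022, without an annotation, had 25.2, 36.4 and 38.1 CPM in +C and 30.7 and 37.6 CPM in +P, against 9.88, 9.42 and 5.82 CPM in the control. Both genes also stood above every control library in +N and −N. JGI-627036, annotated as a chromatin associated protein, had 14.4, 30.5 and 27.8 CPM in +C and 18.3 and 14.5 CPM in +P, against 5.93, 4.31 and 4.91 CPM in the control, and library 1 of +C held less than its other libraries. Its −C libraries (6.38, 6.74 and 6.01 CPM) all lay above those of −P (5.15, 5.98 and 5.30 CPM), a difference that did not pass the test (adjusted p = 0.62).

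The mean of JGI-446626, without an annotation, was 54.9 ± 10.2 CPM in +C and 48.3 ± 1.47 CPM in +P, against 13.2 ± 3.33 CPM in the control (SD). Its −C libraries at 18.03, 18.9 and 15.5 CPM lay above 14.2, 13.4 and 7.23 CPM in −P (log2 fold change 0.50 ± 0.18, adjusted p = 0.0361). This call was lost without −C replicate 1 (log2 fold change 0.49), −C replicate 2 (0.44) or −P replicate 3 (0.24).

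The comparison of −C with −P asked how the same genes stood in media the rule had not used. Of the 162 genes, 79 (48.8%) were higher in −C than in −P and 21 (13.0%) were lower, by edgeR's quasi-likelihood test with Benjamini-Hochberg adjustment over all 14725 genes. Over all tested genes the shares were 17.0% higher and 18.5% lower. Thus the share of higher genes was above the background and that of lower genes was below it. The rule had taken out genes with low L in +N or −N, and the background genes had no such limit. The part of this limit in the lower share was not tested. The −P medium was close to the control, with 14 of the 14725 genes higher and 0 lower by the same test. A rule that favours genes low in the control can thus also favour genes low in −P. How far this raised the higher share was not tested. The median log2 fold change was 0.38 over the 162 genes and 0.015 over all genes tested. Beyond 2-fold, 39 genes were higher and 15 lower. With scaling by column totals alone the counts were 84 higher and 18 lower, against a background of 23.0% and 15.1%. All −C libraries lay above all −P libraries for 93 of the genes and below for 22, and over all genes tested these shares were 31.3% and 19.1%. As no chance test was made for the list, these shares are a description.

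**Figure D2:**
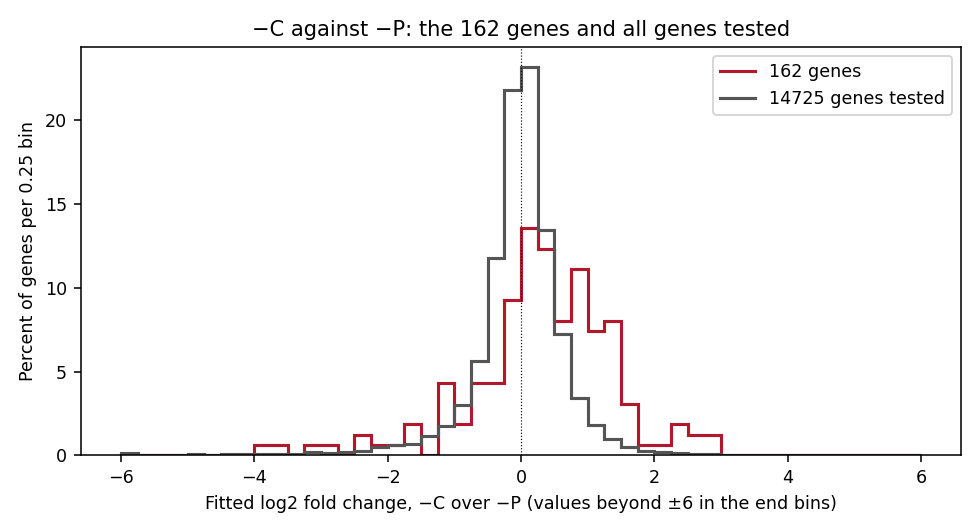
Fitted log2 fold changes of −C over −P (x axis, bins of 0.25) as a percent of genes (y axis), for the 162 genes and for all 14725 genes tested. The 162 genes are shifted to the right, with a median of 0.38 against 0.015.

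The 79 genes that were higher in −C ranged in log2 fold change from 0.35 to 2.90, with a median of 1.00. JGI-190833, a flavoprotein of the WrbA type, which in other organisms reduces quinones, showed the largest. It had 61.0, 60.4 and 62.9 CPM in −C, against 8.62, 4.82 and 9.45 CPM in −P (log2 fold change 2.90 ± 0.18, adjusted p = 4.64e-11). Its levels in +C (36.6, 37.0 and 37.5 CPM) and +P (22.5 and 27.7 CPM) were intermediate, and the control held 16.9, 10.03 and 11.7 CPM. JGI-293829, a peroxidase, had 204.1, 219.4 and 201.7 CPM in −C, against 27.2, 26.3 and 32.3 CPM in −P (log2 fold change 2.79 ± 0.10, adjusted p = 8.94e-15). In this gene +C (42.9, 51.0 and 48.8 CPM) and +P (49.5 and 42.5 CPM) were less than 2-fold above the control (26.1, 26.4 and 28.4 CPM), and −C had its highest mean.

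The clitocypin JGI-318727 belongs to a family of cysteine protease inhibitors known from mushrooms. It had 38.0, 40.1 and 31.7 CPM in −C, against 5.64, 6.88 and 4.72 CPM in −P (log2 fold change 2.60 ± 0.17, adjusted p = 9.08e-11). JGI-484357, without an annotation, had 26.8, 28.34 and 27.97 CPM in −C, against 4.93, 3.30 and 5.01 CPM in −P (log2 fold change 2.55 ± 0.14, adjusted p = 8.77e-12). JGI-627136, whose counterpart in Coprinopsis cinerea carries an MIT domain of vesicle transport proteins, had 44.7, 47.0 and 50.0 CPM in −C, against 12.5, 7.41 and 4.37 CPM in −P (log2 fold change 2.42 ± 0.23, adjusted p = 2.81e-08). JGI-296671, a glutathione transferase, an enzyme class that couples glutathione to reactive compounds, had 73.4, 69.5 and 74.9 CPM in −C, against 17.7, 10.5 and 10.6 CPM in −P (log2 fold change 2.38 ± 0.24, adjusted p = 7.65e-08). In JGI-318727, JGI-484357 and JGI-296671 the −C libraries exceeded those of both surplus media.

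The 21 genes that were lower in −C than in −P ranged in log2 fold change from −3.99 to −0.38, with a median of −1.23. JGI-449804, a protein with a CCHC zinc finger and an aspartic peptidase domain, had 0.293, 0.185 and 0.093 CPM in −C, against 2.55, 3.39 and 2.79 CPM in −P (log2 fold change −3.99 ± 0.34, adjusted p = 4.88e-09). The −C libraries held only 5, 5 and 2 reads of it. It was highest in −N, with 9.47, 8.47 and 9.03 CPM.

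JGI-699309, a small secreted protein, had 2.81, 4.08 and 2.01 CPM in −C, against 19.5, 46.7 and 50.7 CPM in −P (log2 fold change −3.74 ± 0.30, adjusted p = 2.06e-09). JGI-307566, an aldehyde dehydrogenase, which oxidises aldehydes to acids, had 0.234, 0.482 and 0.513 CPM in −C, against 4.77, 2.23 and 2.51 CPM in −P (log2 fold change −3.01 ± 0.37, adjusted p = 1.46e-06). In +N it reached 27.0, 30.1 and 26.7 CPM, above its +C (9.23, 11.0 and 8.98 CPM) and +P levels (9.39 and 9.36 CPM) and above the control (7.96, 4.11 and 3.79 CPM). It thus was a member whose highest level lay outside the surplus media.

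JGI-653015, without an annotation, had 4.98, 4.30 and 2.33 CPM in −C, against 21.1, 30.7 and 24.5 CPM in −P (log2 fold change −2.79 ± 0.39, adjusted p = 7.69e-06). Library 1 of +C held 30.4 CPM of it, within the control range of 16.2 to 31.1 CPM, while the other +C libraries held 106.8 and 103.4 CPM. JGI-697904, also without an annotation, had 8.55, 7.93 and 6.34 CPM in −C, against 46.4, 37.4 and 36.4 CPM in −P (log2 fold change −2.49 ± 0.21, adjusted p = 5.33e-09). It was highest in +N at 585.7, 552.6 and 579.4 CPM, against 67.4, 53.8 and 47.2 CPM in the control. JGI-467257, of unknown function, had 13.1, 14.2 and 14.7 CPM in −C, against 52.0, 84.0 and 78.7 CPM in −P (log2 fold change −2.42 ± 0.15, adjusted p = 3.51e-11).

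**Figure D3:**
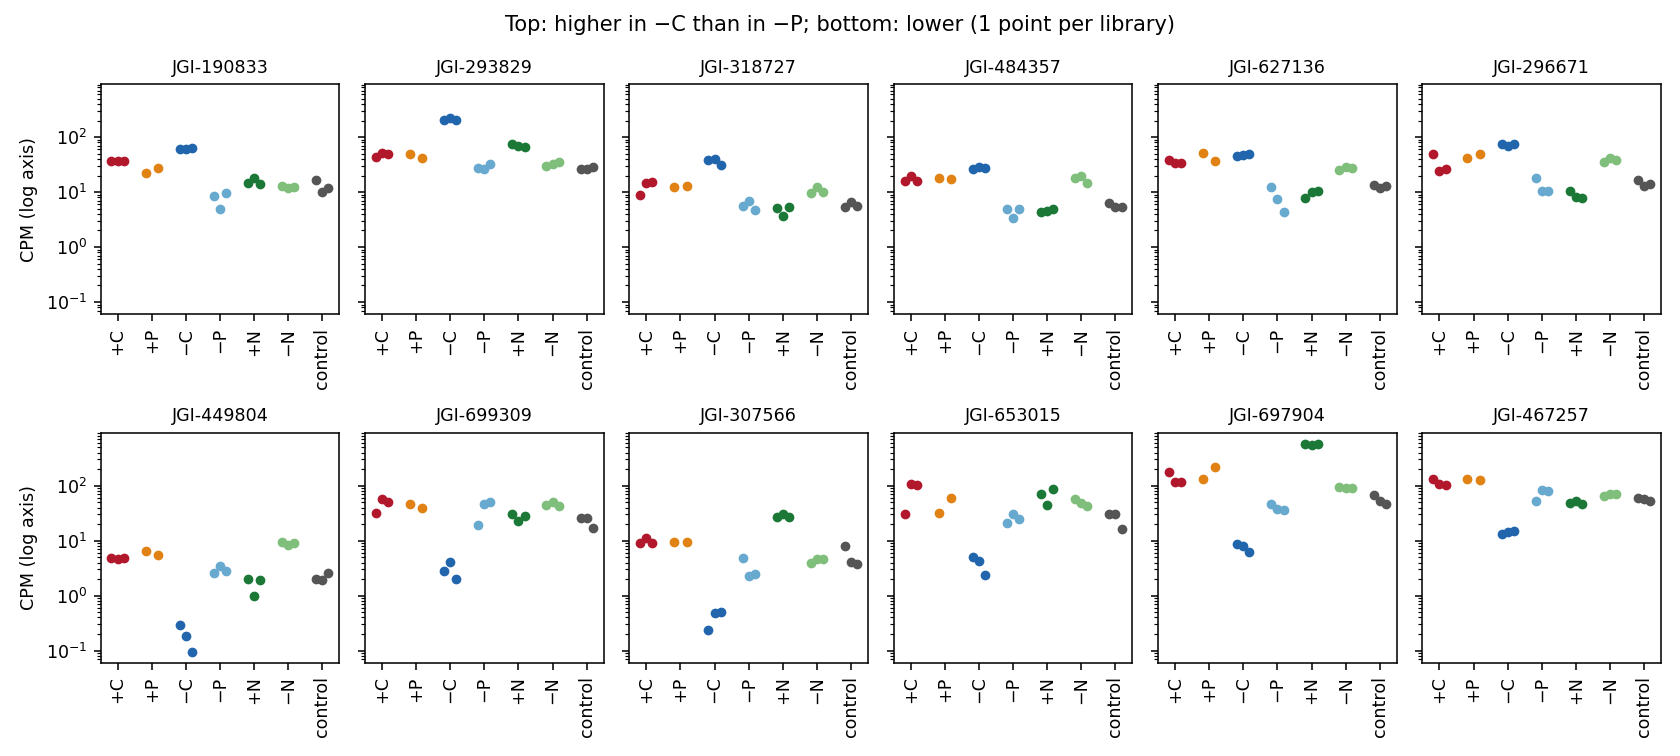
CPM on a log axis of the 6 genes highest in −C over −P (top row) and the 6 lowest (bottom row) in each library, by medium; each point is a library. In the top row every −C point lies above every −P point, and in the bottom row every −C point lies below.

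Set against the control, −C gave 81 higher and 21 lower genes, against a background of 18.2% and 19.4%. In −P 1 gene was higher (background 0.0951%) and 0 were lower (background 0.00%) by edgeR. At an unadjusted p under 0.05 these counts were 17 and 18 of the 162 (background 5.11% and 4.94%), and DESeq2 called 6 and 2 (background 0.523% and 0.244%). The control libraries are shared by both comparisons and belong to the choice, which takes genes that were low in them, so that these counts lean towards higher calls. The gene called in −P, JGI-300118 without an annotation and singled out by its result, had 78.9, 197.1 and 194.5 CPM in −P, against 81.9, 78.9 and 69.7 CPM in the control (log2 fold change 1.04 ± 0.20, adjusted p = 0.0469). Replicate 1 of −P lay within the control range. Without −P replicate 1, 14 of the 162 genes were higher and 8 lower in −P, against 2.01% and 2.16% of all genes tested in that fit. Without any 1 of the other −P or control libraries none was called, which includes −P replicates 2 and 3 and control replicates 1, 2 and 3.

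The 3 classes of genes by −C against −P had similar L in the media of the rule, with medians in +C of 1.00 for the 79 higher genes, 0.99 for the 21 lower genes and 0.955 for the other 62. They differed in −C by construction, with median L of 0.99, −0.97 and 0.12 in the same order. In −N the medians were 0.89, 0.89 and 0.78, and in +N 0.26, 0.38 and 0.37. The mean was higher in −N than in +N for 66 of the 79, 13 of the 21 and 41 of the 62 genes, and for 60.8% of all genes tested. The rule limited L in both media, and the difference between the classes was not tested.

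**Figure D4:**
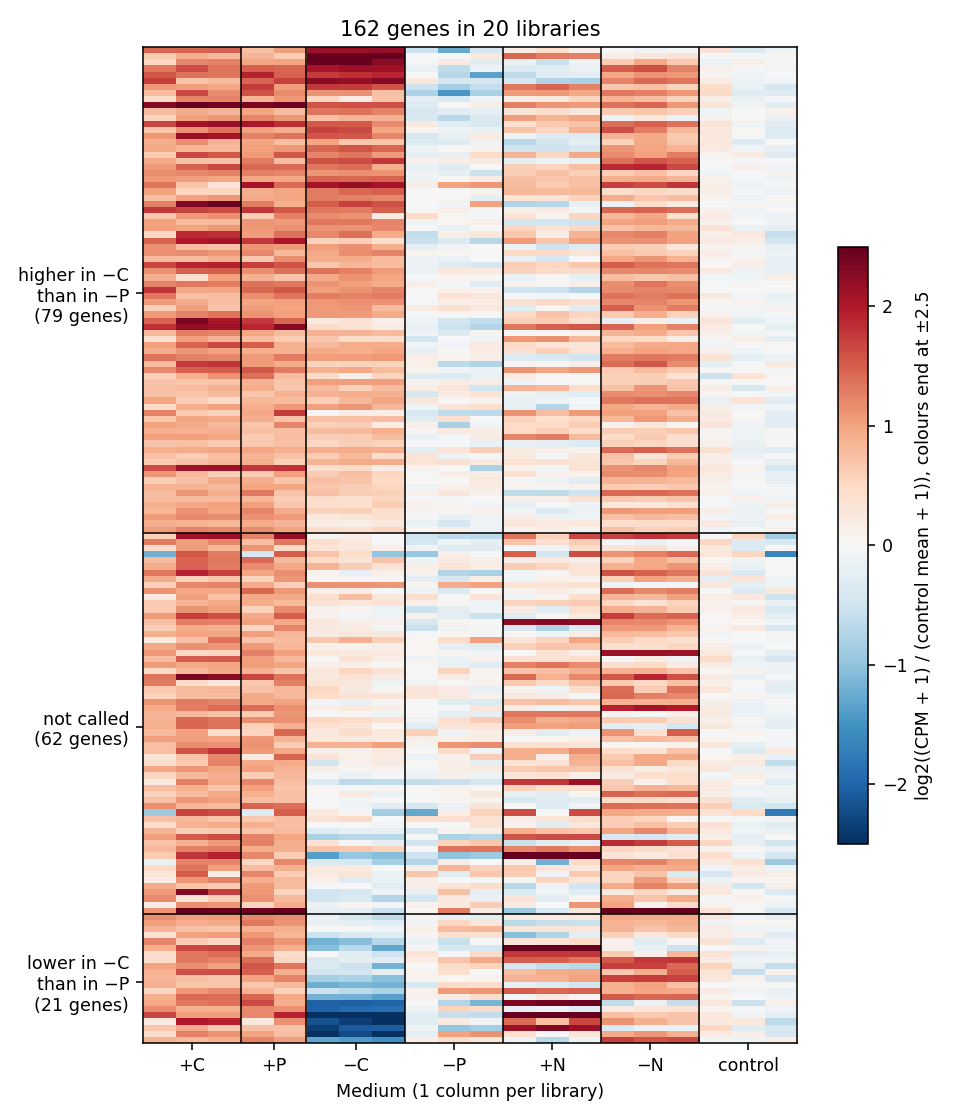
log2((CPM + 1) / (control mean + 1)) of the 162 genes (rows) in the 20 libraries (columns), with rows grouped by the test of −C against −P and sorted by its fold change. The +C, +P and −N columns are red in most rows, the −C columns separate 79 higher from 21 lower genes, and the −P columns are pale like the control.

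In the ammonium media some genes moved apart from the rest. The highest L in +N was that of JGI-475716, without an annotation, at 3.66 (155.8, 148.5 and 154.5 CPM in +N, against 11.0, 11.9 and 10.5 CPM in the control). JGI-697904 followed at 3.33. Both had less in −C than in the control, and the −C libraries of JGI-475716 held 4.80, 6.60 and 3.92 CPM. JGI-635262, annotated with collagens and related proteins, had 55.9, 59.9 and 63.0 CPM in +N, 6.38, 9.18 and 6.60 CPM in −N and 12.8, 6.93 and 11.7 CPM in the control. It was at 1.82, 1.78 and 1.87 CPM in −C, against 10.4, 5.89 and 4.15 CPM in −P (log2 fold change −2.02 ± 0.33, adjusted p = 4.18e-05). The lowest L in +N were those of JGI-296671 at −0.66 and JGI-607491, without an annotation, at −0.63, which lie close to the limit of −0.7.

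The highest L in −N was that of JGI-654096 at 3.37, followed by JGI-301981 at 2.13. JGI-301981 belongs to the proton-dependent oligopeptide transporters, which take up short peptides with protons. It had 27.7, 18.3 and 18.6 CPM in +C, 31.3 and 26.5 CPM in +P and 58.7, 58.8 and 57.5 CPM in −N, against 14.99, 12.2 and 10.4 CPM in the control. Its −C libraries (15.22, 15.01 and 15.01 CPM) were close to those of −P (12.8, 12.9 and 11.9 CPM), and the difference did not pass the test (adjusted p = 0.415). The lowest L in −N were those of JGI-635262 at −0.45 and JGI-448758 at −0.39. JGI-448758, a choline dehydrogenase-like oxidoreductase, had 191.7, 267.1 and 288.4 CPM in +C, 219.5 and 182.9 CPM in +P, 276.5, 285.2 and 289.1 CPM in +N, 69.7, 65.6 and 73.8 CPM in −N and 103.7, 77.7 and 94.3 CPM in the control.

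**Figure D5:**
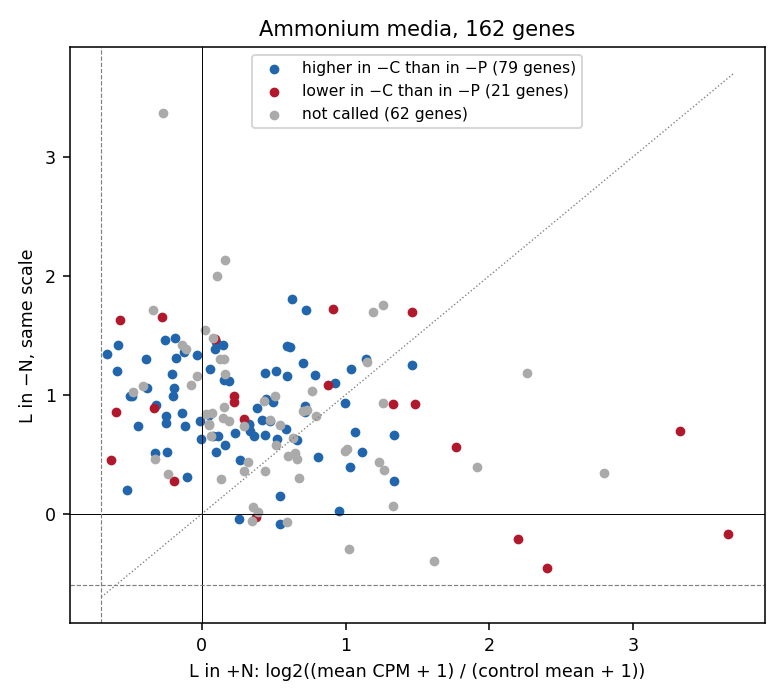
L in +N (x axis) against L in −N (y axis) for the 162 genes, coloured by the test of −C against −P; dashed lines mark the limits of the rule at −0.7 and −0.6, and the dotted line marks equal values. Most genes lie above the dotted line, and JGI-475716 and JGI-697904 lie far to the right at 3.66 and 3.33.

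Among the 162 genes, 50 could be placed in groups by the function of their annotation, and the other 112 could not. Of these 112 genes, 55 were higher and 14 lower in −C than in −P. The shares were 48.8% and 13.0% of the 162 genes, and 17.0% and 18.5% of all genes tested. The groups are small, and their counts here and below are a description. Of 15 genes of carbon and redox metabolism, 9 were higher and 1 was lower in −C than in −P. The glycolytic enzyme glyceraldehyde 3-phosphate dehydrogenase, JGI-184409, had 72.3, 75.8 and 75.4 CPM in +C and 78.6 and 75.7 CPM in +P, against 29.2, 30.5 and 30.1 CPM in the control. In −C it had 66.8, 62.4 and 57.9 CPM, against 33.3, 29.4 and 24.5 CPM in −P (log2 fold change 1.01 ± 0.10, adjusted p = 3.06e-08). Its +N libraries overlapped the control, with 32.0, 28.9 and 32.6 CPM, and those of −N did not, with 67.8, 76.7 and 67.8 CPM. It was the only gene of the 33 tested from the list of glycolytic and tricarboxylic acid cycle enzymes to meet the rule, and the median L of that list was 0.001 in +C and −0.02 in +P.

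Transketolase, JGI-252781, which links the pentose phosphate pathway to glycolysis, held 586.8, 591.5 and 626.5 CPM in −C, against 353.1, 394.7 and 384.2 CPM in −P (log2 fold change 0.60 ± 0.09, adjusted p = 2.75e-05). Glutamate decarboxylase, JGI-315921, makes γ-aminobutyrate from glutamate. It had 100.5, 104.8 and 93.6 CPM in −C, against 57.3, 51.0 and 48.0 CPM in −P (log2 fold change 0.85 ± 0.09, adjusted p = 1.33e-07). JGI-441000, an aldo/keto reductase annotated as a pyridoxine dehydrogenase, had 31.4, 34.7 and 31.4 CPM in −C, against 7.64, 14.6 and 15.5 CPM in −P (log2 fold change 1.32 ± 0.24, adjusted p = 0.000132).

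The second WrbA-type flavoprotein, JGI-656726, was among the 3 genes with the highest median RPKM. It had 1216, 1332 and 1397 CPM in −C, against 496.4, 491.3 and 527.2 CPM in −P (log2 fold change 1.31 ± 0.13, adjusted p = 4.89e-08). Like JGI-190833 it thus was highest in −C, above its +C (996.5, 717.4 and 704.5 CPM) and +P levels (921.4 and 972.8 CPM). The stearoyl-CoA desaturase JGI-295043, which makes unsaturated fatty acids, had 615.9, 816.5 and 806.4 CPM in +C and 791.9 and 558.8 CPM in +P, against 441.8, 306.3 and 347.8 CPM in the control. Its −C libraries at 666.6, 669.1 and 740.9 CPM lay within the spread of −P at 389.9, 783.7 and 826.3 CPM (adjusted p = 0.97). The quinoprotein dehydrogenase-like JGI-476245 was highest in +N, with 131.0, 135.9 and 131.0 CPM, against 27.95, 27.7 and 25.1 CPM in the control. Dienelactone hydrolase, JGI-311783, had 61.8, 60.6 and 49.8 CPM in −C, within the −P range of 39.1 to 62.05 CPM (adjusted p = 0.918).

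Of 8 genes of transport and membranes, 5 were higher in −C than in −P and 0 were lower by edgeR. JGI-626096 and JGI-684490 both resemble the proteolipid PMP3, which in yeast affects the membrane potential. JGI-626096 had 79.9, 90.5 and 65.7 CPM in −C, against 22.0, 37.8 and 41.9 CPM in −P (log2 fold change 1.15 ± 0.25, adjusted p = 0.00114). JGI-684490 had 5.80, 6.34 and 5.04 CPM in −C, against 1.46, 1.52 and 3.01 CPM in −P (log2 fold change 1.45 ± 0.28, adjusted p = 0.000342). In +C replicate 1, both had less than in the other +C libraries. The TspO/MBR-related membrane protein JGI-677493 had 145.5, 135.9 and 118.8 CPM in −C, against 50.6, 67.9 and 67.1 CPM in −P (log2 fold change 1.04 ± 0.10, adjusted p = 7.32e-08).

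The cation:proton antiporter JGI-709724 had 371.7, 388.4 and 411.5 CPM in +C and 410.8 and 322.0 CPM in +P, against 195.0, 185.3 and 223.3 CPM in the control. The P-type ATPase JGI-191443, annotated with proton transport, had 116.6, 134.0 and 129.5 CPM in +C and 127.0 and 107.3 CPM in +P, against 66.5, 54.2 and 60.1 CPM in the control. Both are ion carriers of the fungal membrane, and only the antiporter passed the test in −C against −P (log2 fold change 0.39 ± 0.12, adjusted p = 0.0137, and 0.19 ± 0.10, adjusted p = 0.17, for the ATPase). JGI-639922, a membrane protein of the SUR7/Rim9 type, differed little among libraries of a medium, with 55.7, 53.1 and 59.0 CPM in −C, against 39.6, 38.8 and 40.3 CPM in −P (log2 fold change 0.42 ± 0.09, adjusted p = 0.000517). Of the 19 tested genes of the sugar transport list and the 124 of the list for phosphate transport, polyphosphate and phosphatases, 0 and 2 met the rule. These 2 were JGI-315780, which is a protein phosphatase subunit with a carbohydrate-binding module, and JGI-707360, a BCS1-like ATPase that was listed through the word triphosphatase.

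Of 17 genes of secreted and cell wall proteins, 9 were higher and 2 lower in −C than in −P. The mycorrhiza-induced small secreted protein JGI-303550 (RefSeq symbol MISSP10.4) had 66.3, 64.4 and 62.0 CPM in +C and 105.2 and 64.8 CPM in +P, against 42.6, 27.0 and 22.9 CPM in the control. In −C it reached 107.8, 105.3 and 94.0 CPM, against 21.2, 16.6 and 20.1 CPM in −P (log2 fold change 2.32 ± 0.19, adjusted p = 2.16e-09). The libraries of −P all lay below those of the control. The difference did not pass the test (log2 fold change −0.64 ± 0.19, adjusted p = 0.197). JGI-294777, another small secreted protein, had 10.7, 10.6 and 9.65 CPM in −C, against 4.61, 4.47 and 4.94 CPM in −P (log2 fold change 1.06 ± 0.14, adjusted p = 2.95e-06). Of 216 tested genes listed as small secreted proteins, 10 met the rule (4.63%, against 1.10% of all genes tested). Annotation words were at hand for 40.7% of the 162 genes and 24.5% of all genes tested, so these shares are not of like sets. The study gave these words mostly with lists of regulated genes, in part from these media, so having a word can depend on regulation. Of the 10 genes, 5 were higher and 2 lower in −C than in −P. Of the 216 genes, 42 were higher and 48 lower.

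The second clitocypin gene of the choice, JGI-326015, was lower than the first, with 6.29, 12.5 and 9.71 CPM in +C and 7.94 and 6.22 CPM in +P, against 2.27, 1.14 and 1.44 CPM in the control. It had 2.05, 2.37 and 1.87 CPM in −C, against 1.41, 0.893 and 0.716 CPM in −P (log2 fold change 0.93 ± 0.32, adjusted p = 0.0271). This call was lost without −C replicate 2 (log2 fold change 0.83), −P replicate 2 (0.85) or −P replicate 3 (0.72). Of the 8 clitocypin genes tested, these 2 met the rule, and over the 8 the median L was 0.30 in +C and −0.01 in +P. No member was listed as a hydrophobin or with pheromones, and these lists held 5 and 8 tested genes. Members without annotation words could not be judged for either class.

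The secreted aspartyl protease JGI-302848 (RefSeq symbol LbPR_A1) had 42.4, 33.7 and 32.4 CPM in +C and 52.5 and 49.5 CPM in +P, against 28.36, 13.998 and 12.82 CPM in the control. In −C it had 18.2, 16.8 and 15.2 CPM, within the range of −P at 13.7, 16.4 and 23.2 CPM (adjusted p = 0.6). The expansin-like secreted protein JGI-313260 was lower in −C, with 4.33, 4.78 and 6.34 CPM, against 9.92, 7.14 and 10.6 CPM in −P (log2 fold change −0.92 ± 0.24, adjusted p = 0.00411). Expansins are known from plants as proteins that loosen cell walls. Enzymes acting on polysaccharides included JGI-593820, a glycoside hydrolase with 89.2, 93.6 and 101.0 CPM in −C, against 43.2, 46.2 and 45.9 CPM in −P (log2 fold change 1.00 ± 0.17, adjusted p = 0.000104). The GH16 enzyme JGI-305507, of a family that acts on β-glucans, had 5.04, 4.15 and 4.90 CPM in −C, against 2.93, 3.30 and 1.43 CPM in −P (log2 fold change 0.80 ± 0.27, adjusted p = 0.023). Its call was lost without −C replicate 1 (log2 fold change 0.76), −C replicate 3 (0.73) or −P replicate 3 (0.51).

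Of 10 genes of information processing and signalling, 1 was higher and 4 were lower in −C than in −P, and the median log2 fold change was −0.68. JGI-483117, annotated as LbMedA-2, is named after MedA, a regulator of development in Aspergillus. It had 18.5, 26.8 and 26.4 CPM in +C, 27.0 and 19.3 CPM in +P and 28.9, 27.0 and 27.3 CPM in −N, against 9.996, 9.35 and 8.77 CPM in the control. In −C it was at 3.57, 3.48 and 3.03 CPM, against 10.1, 10.9 and 13.3 CPM in −P (log2 fold change −1.84 ± 0.16, adjusted p = 1.09e-08). JGI-308071, with a SANT DNA-binding domain, was at 3.63, 3.71 and 2.94 CPM in −C, against 7.64, 7.501 and 7.73 CPM in −P (log2 fold change −1.23 ± 0.16, adjusted p = 2.19e-06). It too was highest in −N, at 25.7, 26.5 and 25.5 CPM. JGI-707360, the BCS1-like ATPase named above, is an uncertain member of this group. It had 160.4, 160.8 and 147.3 CPM in −C, against 173.2, 274.5 and 284.3 CPM in −P (log2 fold change −0.71 ± 0.13, adjusted p = 0.000156). The gene higher in −C, JGI-481179, carries an aminoacyl-tRNA ligase annotation and had 6.91, 8.19 and 6.15 CPM there, against 5.58, 3.75 and 4.01 CPM in −P (adjusted p = 0.0154).

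The other genes of the choice with the highest median RPKM, a level per transcript length, were JGI-396313 and JGI-678097, both without an annotation. JGI-396313 had 1044, 1446 and 1359 CPM in +C and 993.8 and 1510.2 CPM in +P, against 714.7, 776.5 and 499.4 CPM in the control. JGI-678097 had 689.3, 882.6 and 848.3 CPM in +C and 648.7 and 1057 CPM in +P, against 485.1, 532.7 and 346.9 CPM in the control. Neither passed the test in −C against −P (adjusted p = 0.247 and 0.269). The median over the 162 genes of the median RPKM was 22.1, against 15.1 over all genes tested, and the median transcript length was 993.5 bases, against 1122 bases.

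At the edge of the choice, JGI-593984 (L of 0.71 in +C and 0.70 in +P), JGI-439713 (0.70 and 0.89) and JGI-656886 (1.01 and 0.70) were just inside. JGI-190652 (0.70 and 0.88), JGI-326347 (0.70 and 0.74) and JGI-443101 (0.77 and 0.70) fell just short of 0.7 before rounding. JGI-190652 had 215.2, 220.3 and 211.8 CPM in −C, against 21.1, 18.2 and 17.3 CPM in the control.

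Of the 19 lists of annotation words, 12 held a member, and 29 of the 162 genes were on at least 1 list. The lists for cytochrome P450 (26 genes tested), protein kinases (141), heat shock proteins and chaperones (26) and DNA replication and cell cycle (103) held none. The ribosomal protein list held 1 of 69 genes, JGI-654096. The list of glutathione and peroxide enzymes held 2 of 36 genes, the peroxidase JGI-293829 and the transferase JGI-296671, both higher in −C than in −P. Annotation words were at hand for 66 of the 162 genes and for 24.5% of all genes tested, so the lists are incomplete.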

How the data were processed

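Reads of 20 libraries of Laccaria bicolor S238N mycelium were sequenced from both ends over 150 bases after a stranded preparation of polyadenylated RNA. The authors trimmed the reads, mapped these to JGI v2 transcripts in CLC Genomics Workbench, allowing up to 10 hits per read, and deposited raw read counts per gene model. Whether unique or total reads were deposited, and the use of strand, is not given in the sources used here, so that counts of near-identical copies are uncertain. The deposited RPKM values, reads scaled by transcript length and library size, served only for levels per length and transcript lengths. DESeq2 is named in the submitters' notes without a version.

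The members and the lists were chosen with earlier results of these data known. CPM values are the counts over the column totals, with a pseudocount of 1 in L. Tests used edgeR 4.0.16 in R 4.3.3 (quasi-likelihood F-test, TMM scaling, default filter by group, all 20 libraries in 1 fit, Benjamini-Hochberg adjustment over the 14725 genes tested, threshold 0.05). Standard errors were derived from the F statistic. The labels call the libraries biological replicates, and none of 19 within-medium pairs was identical. The counts of each pair were compared by chi-square per degree of freedom. It ran from 1.97 (+C replicates 2 and 3) to 28.5 (+C replicates 1 and 2). It was 2.22 for −C replicates 1 and 2, against 10.2 and 12.6 for these with −C replicate 3. For −P replicates 2 and 3 it was 6.46, against 16.4 and 22.5 for these with −P replicate 1. Some pairs were thus much closer than others, and the tests counted each library as an independent replicate.

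Named genes were the 8 highest by summed L, up to 6 called genes in each direction of −C against −P with non-overlapping libraries and 10 or more reads throughout the higher medium, genes named by number in the study or with a RefSeq symbol, 3 on either side of the limit, the 3 highest by RPKM, members of lists holding 3 or fewer, and those with extreme L in +N or −N. Further genes of the functional groups and JGI-300118 were added after their values were seen. Of the 162 genes, 54 matched a RefSeq locus tag (V1.0 assembly) by number (6580 of 23130 in all). No sequences or coordinates are given, and a search of promoters was not run. Alternatives were other scalings, filters and tools, a replicate block, a term for a letter i carried by 5 library names, and leaving out each library.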

Additional observations from a re-analysis of the deposited data

How the results depend on the processing

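The rule returned between 131 and 200 genes under its alternatives, with 134 on TMM-scaled CPM (133 shared with the 162), 131 at a pseudocount of 2 and 208 passing at 0.5. Leaving out 1 library gave 139 to 200 genes. For −C against −P, leaving out 1 library gave 71 to 81 higher and 18 to 24 lower genes, and the count beyond 2-fold was 39 higher. Against the control, −C gave 73 to 80 higher and 16 to 19 lower genes without 1 library, and 42 higher beyond 2-fold. The higher genes in −P against the control, 1 in all, numbered 0 with upper quartile scaling, with column totals, with at least 10 reads in each library, with only the groups compared and with the replicate block, 4 with the term for the letter i, 5 without a filter, 6 with DESeq2, and 0 to 14 without 1 library. The lower ones, 0 in all, numbered 1 without a filter, 2 with DESeq2 and 0 to 8 without 1 library. The cause was not tested. Same-numbered libraries had deviations correlated at r of −0.13 to −0.05 between −C and −P, 0.07 to 0.30 between −C and the control, and −0.20 to 0.08 between −P and the control, so the numbers were not taken to pair them. With a replicate block the counts were 78 higher and 22 lower in −C than in −P, and 78 and 20 against the control. With the term for the letter i they were 77 and 18, and 78 and 18. Of 729 recomputed fold changes of 49 single genes in −C against −P, 702 kept their call, 18 lost it, 9 gained it and 0 turned direction among called values. Genes under 10 reads per library are limited by depth, and 19 of the 162 had such a library.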
